A study of Homo sapiens with 10 samples.

Results

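Human HCT116 colorectal carcinoma cells carrying mutations in ORC1 were compared with HCT116 cells carrying mutations in ORC2, to find which transcripts differ between cells mutated in one or the other of these 2 subunits. The comparison used 8 of the 10 expression arrays of the study: 4 arrays of the ORC1 mutant lines ORC1B14 and ORC1BP32, and 4 arrays of the ORC2 mutant lines ORC2B2 and ORC2BP8. They were chosen by the line name in the sample title, and each line has an array titled replicate 1 and another titled replicate 2. The other 2 arrays, of wild-type (WT) HCT116 cells, served as a reference level and joined a fit only in alternative settings, named as such. All cells were untreated, and total RNA was labelled with biotin. The labels give neither the mutation of any line, nor whether a line is a single clone, nor whether an ORC1 line still makes ORC1 protein. They call the replicates biological but name no separate cultures, and the p-values then cover no more than the spread among the arrays, part or all of which may be technical.

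The origin recognition complex binds DNA where replication will start and, with CDC6 and CDT1, loads the MCM helicase there before S phase. ORC1 is an ATPase subunit related to CDC6, carries a domain that reads methylated histone H4, and is degraded in many human cells once S phase begins. ORC2 belongs to the core that stays together through the cell cycle, and both proteins have also been tied to centrosomes and heterochromatin.

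Levels are the deposited values, read as log2 from their range because no label gives the log base, so a difference of 1 is taken as a 2-fold difference. A gene was tested when its probe set reached the array's median on at least 4 of the 8 mutant arrays, and 10320 named genes passed. The array medians were 3.94 to 3.95 for replicate 1 and 3.87 to 3.89 for replicate 2 of the mutant lines. Of the colonic epithelial markers, 10 of 11 named, among them EPCAM, KRT18 and KRT19, lay at or above the array median on all 8 arrays, and LGR5 on none. The fibroblast markers DCN and LUM, the blood markers LYZ and CD14, and ALB, AFP and ESR1 were below it on every one of the 8 arrays, while THY1 and CD68 were at or above it on all of them. Of 10 markers of liver, kidney, lung and breast, 6 (APOA1, PAX2, PAX8, LHX1, SFTPB and GATA3) were also at or above it on all 8 arrays, so the array median tells colonic from other epithelia poorly. None of ORC1 to ORC6 was named on the array here (0 of 6), so the mutated genes themselves are not analysed here and the labels could not be checked against them.

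No transcript passed the test with line as a random block. The consensus correlation within a line was 0.029, so this fit took the 8 arrays almost as independent. Its p-values thus take arrays rather than lines as the unit and do not extend to all possible mutants. Fitted on the mean of each line, limma also called 0 genes, with 613 at an unadjusted p under 0.05. In limma with the replicate number as a block and the line as a random block, 0 of 10320 genes (0%) differed between ORC1 and ORC2 lines at an adjusted p under 0.05. The smallest adjusted p was 0.116. At an unadjusted p under 0.05 in the same limma fit there were 797 genes (7.72%), of which 450 (4.36%) were higher in ORC1 lines and 347 (3.36%) lower. The median difference over all genes was 0.00031, and the median size of a difference, whatever its sign, was 0.12. With 4 lines an exact permutation test of line labels cannot go below 0.333, so no single gene can be called that way. With a whole line left out, so that 1 mutated gene rested on a single line, the limma fit called 2 genes without ORC1B14, 7 without ORC1BP32, 62 without ORC2B2 and 4 without ORC2BP8.

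A second limma fit took line as a fixed factor and asked only whether the mean of these 2 ORC1 lines differs from the mean of these 2 ORC2 lines, against the spread between arrays of one line. It called 26 genes (0.252%), 18 of them higher in ORC1 lines (0.174%) and 8 lower (0.0775%). These calls speak of these 4 lines and not of ORC1 and ORC2 mutants in general. The count was 5 without the replicate block (CNTN1, DHRS3, DNER, GLIS3-AS1 and PEG10), 7 without ORC1B14 replicate 1, 8 without ORC1BP32 replicate 2, and 16 without either ORC1BP32 replicate 1 or ORC2BP8 replicate 1. The 26 genes were chosen on these same arrays, so the counts that follow describe them and lend the calls no support. Of the 26 genes, 18 were at least 2-fold apart and 26 had the same sign in both replicate numbers. The sign was the same in all 4 pairings of an ORC1 with an ORC2 line for 22. The 4 ORC1 arrays did not overlap the 4 ORC2 arrays in 14 of the 26. Over all genes tested that was so for 348 (3.37%), with ORC1 arrays above in 216 (2.09%) and below in 132 (1.28%).

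Of the 26 calls, 6 stood when any single array was left out: DHRS3, DNER, UCA1, SAMD9 and GLIS3-AS1, higher in ORC1 lines, and KRTAP2-3, lower. Their promoters are shown because these calls depended least on a single array. RefSeq (GRCh38.p14) sequences were found for 4 of the 6 and for 19 of the 26, with DNER and UCA1 not listed. Each run is the 250 bases before a start site, 5′ to 3′ on the gene's strand, and DHRS3 is shown by the first of 3 listed start sites. Capitals mark matches on either strand to the TATA box TATAAA, the GC box GGGCGG or the core of the interferon-stimulated response element, which is GAAA, any 2 bases and GAAA again.
DHRS3: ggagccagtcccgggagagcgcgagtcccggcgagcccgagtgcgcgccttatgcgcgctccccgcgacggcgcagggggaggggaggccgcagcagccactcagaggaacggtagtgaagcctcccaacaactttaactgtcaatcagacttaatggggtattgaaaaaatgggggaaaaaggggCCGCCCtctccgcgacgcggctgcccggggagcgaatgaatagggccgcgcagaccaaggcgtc
KRTAP2-3: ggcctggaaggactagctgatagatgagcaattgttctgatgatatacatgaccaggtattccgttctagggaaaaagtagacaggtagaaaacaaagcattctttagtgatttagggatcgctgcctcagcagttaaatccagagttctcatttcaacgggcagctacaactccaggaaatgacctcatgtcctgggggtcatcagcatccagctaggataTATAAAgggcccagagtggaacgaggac
SAMD9: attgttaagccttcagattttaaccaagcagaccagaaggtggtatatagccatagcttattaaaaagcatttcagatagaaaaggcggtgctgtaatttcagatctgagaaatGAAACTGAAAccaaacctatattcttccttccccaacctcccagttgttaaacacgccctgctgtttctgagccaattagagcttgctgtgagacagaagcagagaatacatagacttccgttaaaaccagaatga
GLIS3-AS1: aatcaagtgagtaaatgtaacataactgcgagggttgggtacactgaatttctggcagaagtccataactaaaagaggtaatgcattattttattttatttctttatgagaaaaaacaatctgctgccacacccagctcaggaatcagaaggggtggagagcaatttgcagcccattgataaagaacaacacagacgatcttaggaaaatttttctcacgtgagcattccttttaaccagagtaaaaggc
These runs are chr1:12618211-12618460, chr17:41060115-41060364 and chr7:93117980-93118229 on the minus strand, and chr9:3898396-3898645 on the plus strand, in that order. The DHRS3 run holds 26 CpG dinucleotides, against a median of 11 over 35116 listed promoters, while KRTAP2-3 holds 4, SAMD9 3 and GLIS3-AS1 3. At the DHRS3 start sites not shown the same length holds 10 and 3, and which site these cells use was not tested. A GC box, present in 42.6% of promoters of this length, was found once in the DHRS3 run. None was found in the other runs shown or at the other DHRS3 start sites. A TATA box, present in 10.7%, was found once in the KRTAP2-3 run, and the response element, present in 3.02%, once in the SAMD9 run. The GLIS3-AS1 run held none of the 3 motifs, and no match overlapped another.

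DHRS3 encodes a reductase that turns retinaldehyde back into retinol, and it was the gene with the smallest unadjusted p. Its log2 levels were 8.21 and 8.12 in ORC1B14, 7.55 and 7.44 in ORC1BP32, 6.50 and 6.52 in ORC2B2, and 6.46 and 6.42 in ORC2BP8. The groups did not overlap, the 2 arrays of each line read nearly alike, and WT, at 7.02 and 6.53, lay between the ORC1 and ORC2 lines. DHRS3 was 2.56-fold higher in ORC1 lines (log2 difference 1.36, SE 0.18, n = 4 arrays a group), with a limma adjusted p of 0.116 and, with line as a fixed factor, 0.0042. ORC1B14 was also above ORC1BP32, so the ORC1 lines differed between themselves. Of the 19 genes in the list of retinoic acid metabolism and signalling 5 were tested, and at an unadjusted p under 0.05 DHRS3 was the only one of them that was higher, with 0 lower. The members next in rank by p, CRABP2, which carries retinoic acid in the cytoplasm, and RARRES2, which encodes the chemoattractant chemerin, differed by -0.34 (SE 0.23, unadjusted p 0.174) and 0.15 (SE 0.12, unadjusted p 0.245) in limma.

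DNER encodes a transmembrane protein with EGF repeats that can act as a Notch ligand. Its log2 levels were 7.84 and 7.44 in ORC1B14, 7.82 and 7.32 in ORC1BP32, 6.59 and 6.68 in ORC2B2, and 6.02 and 5.96 in ORC2BP8, against a mean of 6.63 over both WT arrays. The ORC1 lines were level with each other and above both ORC2 lines, and ORC2BP8 was the lowest. The difference was 1.30 (SE 0.19), with a limma adjusted p of 0.116 and, for fixed lines, 0.010.

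UCA1 is a long noncoding RNA named after urothelial carcinoma. It stood at 10.79 and 9.75 in ORC1B14, 10.55 and 10.03 in ORC1BP32, 9.36 and 7.97 in ORC2B2, 9.97 and 8.77 in ORC2BP8, and 10.66 and 9.19 in WT. The groups overlapped as a whole, because replicate 1 was higher than replicate 2 in every line, but within each replicate number both ORC1 arrays lay above both ORC2 arrays. The difference was 1.26 (SE 0.21), with a limma adjusted p of 0.132 and, for fixed lines, 0.011. The call for fixed lines was lost when the mean of the gene's probe sets was used, where the log2 difference of UCA1 was 0.78, and without the replicate block.

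KRTAP2-3 encodes a keratin-associated protein of the hair shaft and belongs to a family of near-identical copies, so its probes may also read its relatives. Its levels were 8.53 and 7.19 in ORC1B14, 7.60 and 6.52 in ORC1BP32, 9.18 and 9.12 in ORC2B2, and 9.66 and 9.40 in ORC2BP8. All 4 ORC1 arrays were below all 4 ORC2 arrays, and WT was below every mutant array at 5.80 and 6.01. The difference was -1.88 (SE 0.28), with a limma adjusted p of 0.116 and, for fixed lines, 0.010, a call lost without the replicate block.

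SAMD9 encodes an interferon-induced antiviral protein. Its levels were 7.66 and 6.92 in ORC1B14, 9.72 and 8.24 in ORC1BP32, 7.31 and 6.22 in ORC2B2, 6.96 and 5.57 in ORC2BP8, and 6.95 and 6.88 in WT. ORC1BP32 stood apart above the other 3 lines, and ORC1B14 overlapped the ORC2 arrays. The difference was 1.62 (SE 0.41), with a limma adjusted p of 0.423 and, for fixed lines, 0.0042, a call lost without the replicate block.

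GLIS3-AS1, an antisense RNA at the GLIS3 gene, was high in ORC1B14 alone. Its levels were 7.96 and 8.19 there, 4.59 and 3.46 in ORC1BP32, 3.98 and 4.44 in ORC2B2, 4.03 and 3.79 in ORC2BP8, and 3.72 and 5.20 in WT. In the mutant lines other than ORC1B14 it thus read near the array medians of 3.87 to 3.95. The difference of 1.99 (SE 0.92, n = 4 arrays a group) had a limma adjusted p of 0.657 and, for fixed lines, 0.011, and without ORC1B14 it was -0.035 with an adjusted p of 0.986.

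**Figure D1:**
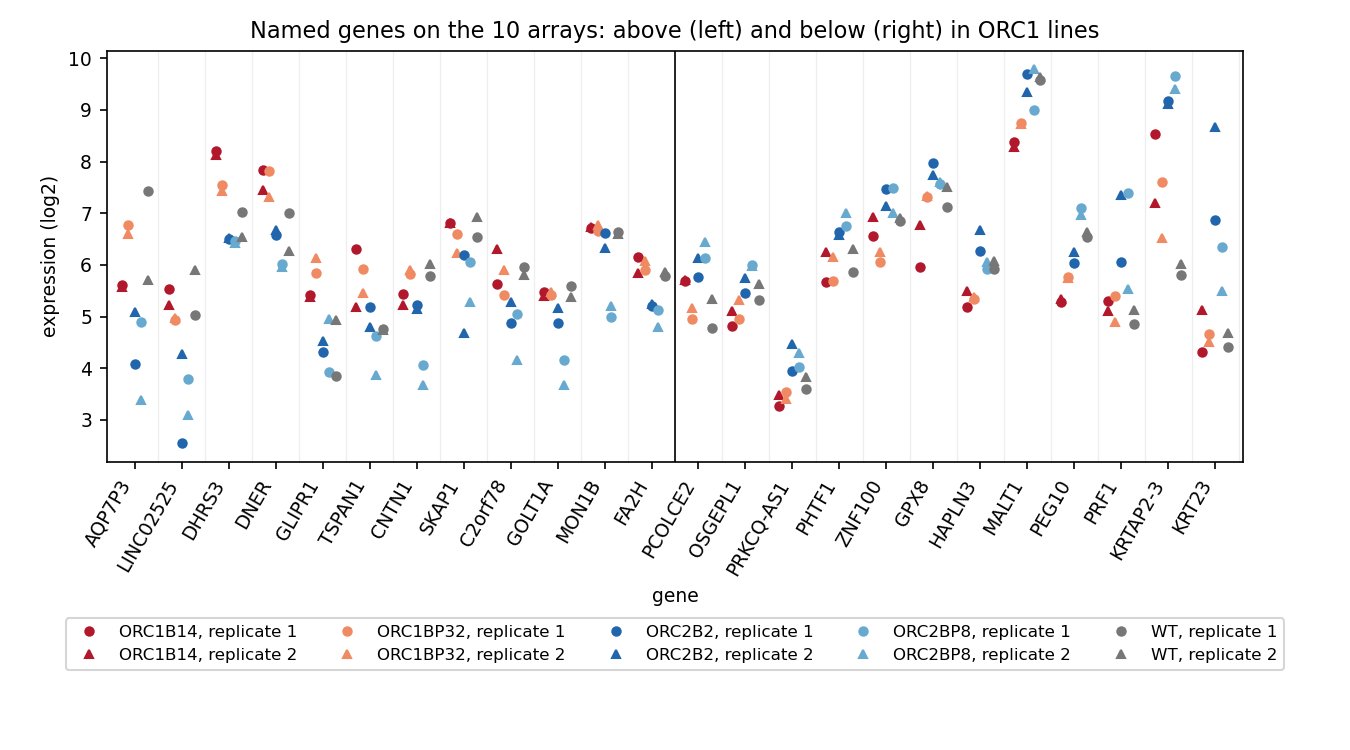
Log2 expression (vertical axis) of the 12 genes highest and the 12 genes lowest in ORC1 relative to ORC2 lines by the naming rule, with a circle for replicate 1 and a triangle for replicate 2 of each line and WT in grey. Red and blue points do not overlap for any of these genes because the rule required it, and for 8 of the 24 genes a single line lies apart from the other 3.

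The naming rule took the largest differences among genes whose arrays did not overlap, and so says nothing about overlap. Of these 24 genes, 12 were called with line as a fixed factor and 0 in the limma fit with line as a random block, where adjusted p ran from 0.116 to 0.594. Among genes higher in ORC1 lines, GLIPR1, a member of the CAP family that p53 can induce, stood at 5.42 and 5.38 in ORC1B14, 5.84 and 6.14 in ORC1BP32, 4.31 and 4.53 in ORC2B2, and 3.92 and 4.96 in ORC2BP8. Both ORC1 lines were above both ORC2 lines, by 1.27 on average (SE 0.21, limma adjusted p 0.132, fixed lines 0.023). The tetraspanin TSPAN1 stood at 6.30 and 5.19 in ORC1B14, 5.92 and 5.46 in ORC1BP32, 5.18 and 4.80 in ORC2B2, and 4.62 and 3.88 in ORC2BP8. Its lowest ORC1 array and its highest ORC2 array were almost level, and the difference was 1.10 (SE 0.22, limma adjusted p 0.258, fixed lines 0.023).

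FA2H, which hydroxylates fatty acids of sphingolipids, stood at 6.15 and 5.85 in ORC1B14, 5.90 and 6.08 in ORC1BP32, 5.20 and 5.24 in ORC2B2, and 5.14 and 4.80 in ORC2BP8. WT, at 5.79 and 5.87, was at the level of the ORC1 lines, and both ORC2 lines were below it. The difference was 0.90 (SE 0.14, limma adjusted p 0.132, fixed lines 0.041), and the call for fixed lines was lost without any single one of the 8 arrays.

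STK39, a kinase that acts on cation-chloride cotransporters and was set apart by earlier results of these data, showed the same order at a high level. It read a mean of 11.003 over both arrays of ORC1B14, and array by array 11.31 and 11.20 in ORC1BP32, 10.54 and 10.25 in ORC2B2, 10.27 and 10.31 in ORC2BP8, and 11.53 and 11.53 in WT. All ORC1 arrays were above all ORC2 arrays and WT was above both, with a difference of 0.79 (SE 0.11, limma adjusted p 0.116, fixed lines 0.015). The motor protein gene MYO1E, named after its values were seen, differed by 0.77 (SE 0.12, limma adjusted p 0.132, fixed lines 0.041), with ORC1 arrays from 9.41 to 9.69 and ORC2 arrays from 8.58 to 9.05. Its call for fixed lines was also lost without any single one of the arrays.

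For 3 genes of the 12 highest, ORC2BP8 alone was low. CNTN1, a cell adhesion molecule of neurons, stood at 4.07 and 3.68 in ORC2BP8 and from 5.14 to 5.90 in the other mutant lines, with 5.79 and 6.01 in WT. GOLT1A, a Golgi transport protein, stood at 4.15 and 3.68 in ORC2BP8 and from 4.88 to 5.48 in the others. MON1B, which activates the small GTPase of late endosomes, stood at 4.99 and 5.21 in ORC2BP8 and from 6.33 to 6.77 in the others. Their differences of 1.07, 0.97 and 0.93 between ORC1 and ORC2 lines thus joined an ORC2BP8 that stood apart to an ORC2B2 close to the ORC1 lines. The remaining 4 of the 12, the aquaporin pseudogene AQP7P3, LINC02525, the T-cell adaptor gene SKAP1 and C2orf78, differed by 0.97 to 1.77 and were called in neither fit (limma adjusted p 0.212 to 0.472, fixed lines 0.064 to 0.138). LINC02525 was below the array median on 3 of the 8 arrays, all of them ORC2 arrays.

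KRT23, a keratin of simple epithelia, showed the largest difference among genes lower in ORC1 lines. It read 4.32 and 5.13 in ORC1B14, 4.67 and 4.50 in ORC1BP32, 6.88 and 8.66 in ORC2B2, and 6.35 and 5.50 in ORC2BP8, with WT at 4.41 and 4.69. WT was at the level of the ORC1 lines, and the 2 replicates of ORC2B2 lay more than 1 log2 unit apart. The difference was -2.19 (SE 0.53), with a limma adjusted p of 0.395 and, for fixed lines, 0.037.

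PEG10, an imprinted gene derived from a retrotransposon, read 5.28 and 5.35 in ORC1B14, 5.76 and 5.75 in ORC1BP32, 6.03 and 6.25 in ORC2B2, and 7.10 and 6.96 in ORC2BP8. All 4 lines were at separate levels, and WT, at 6.54 and 6.65, lay between the ORC2 lines. The difference was -1.06 (SE 0.25, limma adjusted p 0.366, fixed lines 0.015). Of the 8 imprinted genes tested, PEG10 and GRB10, an adaptor that restrains insulin signalling (-0.38, SE 0.15), were lower at an unadjusted p under 0.05 and 0 were higher.

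HAPLN3, a hyaluronan-binding link protein, read 5.18 and 5.50 in ORC1B14, 5.35 and 5.39 in ORC1BP32, 6.27 and 6.67 in ORC2B2, and 5.93 and 6.05 in ORC2BP8. WT, at 5.93 and 6.07, was at the level of ORC2BP8 and below ORC2B2. The difference was -0.88 (SE 0.16, limma adjusted p 0.212, fixed lines 0.033), and the call for fixed lines was lost without any single one of the arrays. MALT1, the paracaspase of NF-kB signalling, read 8.28 to 8.74 on ORC1 arrays, 9.01 to 9.78 on ORC2 arrays and 9.57 and 9.64 in WT. It differed by -0.93 (SE 0.19) and was called in neither fit (limma adjusted p 0.258, fixed lines 0.070). The remaining 7 of the 12 lowest were PRF1 (perforin), GPX8, ZNF100, PHTF1, PRKCQ-AS1, OSGEPL1 and PCOLCE2. They differed by -1.41 to -0.74 and were called in neither fit. PRKCQ-AS1 was below the array median on 4 of the 8 arrays, all of them ORC1 arrays. It thus passed the filter only through the ORC2 arrays, where it was higher.

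A single line stood apart in 16 of the 26 genes called with line as a fixed factor, in that its gap to the nearest other line was larger than the whole range of the other 3. That line was ORC2BP8 for 7 genes, ORC2B2 for 5, ORC1B14 for 2 and ORC1BP32 for 2. YBX1, which encodes a protein that binds Y-box DNA and RNA, read 7.54 and 9.20 in ORC2B2 and from 11.46 to 11.90 on the other 6 mutant arrays. MLKL, the executioner of necroptosis, read 4.33 and 4.84 in ORC2BP8 and from 6.41 to 6.96 on the others, and without ORC2BP8 its difference went from 1.04 to -0.085 (limma adjusted p 0.893). NETO2, an auxiliary subunit of kainate receptors, read 4.38 and 5.93 in ORC1B14 and from 7.05 to 8.69 on the others. These 3 genes were named after their values were seen, and in each 1 line lay apart from the other 3. The 10 called genes in which no line stood apart were DHRS3, DNER, GLIPR1, TSPAN1, FA2H, STK39, MYO1E, UCA1, KRTAP2-3 and HAPLN3.

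WT lay nearer the ORC1 lines for 14 of the 26 genes and nearer the ORC2 lines for 12. Among the 348 genes with arrays apart, WT lay between the groups in 167, above both in 80 and below both in 101. It was nearer ORC1 lines in 180 and nearer ORC2 lines in 168.

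Lines of the same mutated gene differed about as much as lines of different mutated genes. At 2 arrays against 2 in the limma fit with fixed lines, 10 genes (0.0969%) were called between ORC1B14 and ORC1BP32 and 50 (0.484%) between ORC2B2 and ORC2BP8. Between an ORC1 and an ORC2 line the counts were 6 (0.0581%) for ORC1B14 and ORC2B2, 12 (0.116%) for ORC1BP32 and ORC2B2, 64 (0.62%) for ORC1BP32 and ORC2BP8, and 90 (0.872%) for ORC1B14 and ORC2BP8. The 3 pairs with most calls all held ORC2BP8, and they share its 2 arrays. Genes at least 2-fold apart numbered 77 and 111 for the pairs of one mutated gene and 74 to 137 for the pairs of different genes. The SD over genes of the difference between 2 lines was 0.289 and 0.293 for the former and 0.281 to 0.324 for the latter.

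**Figure D2:**
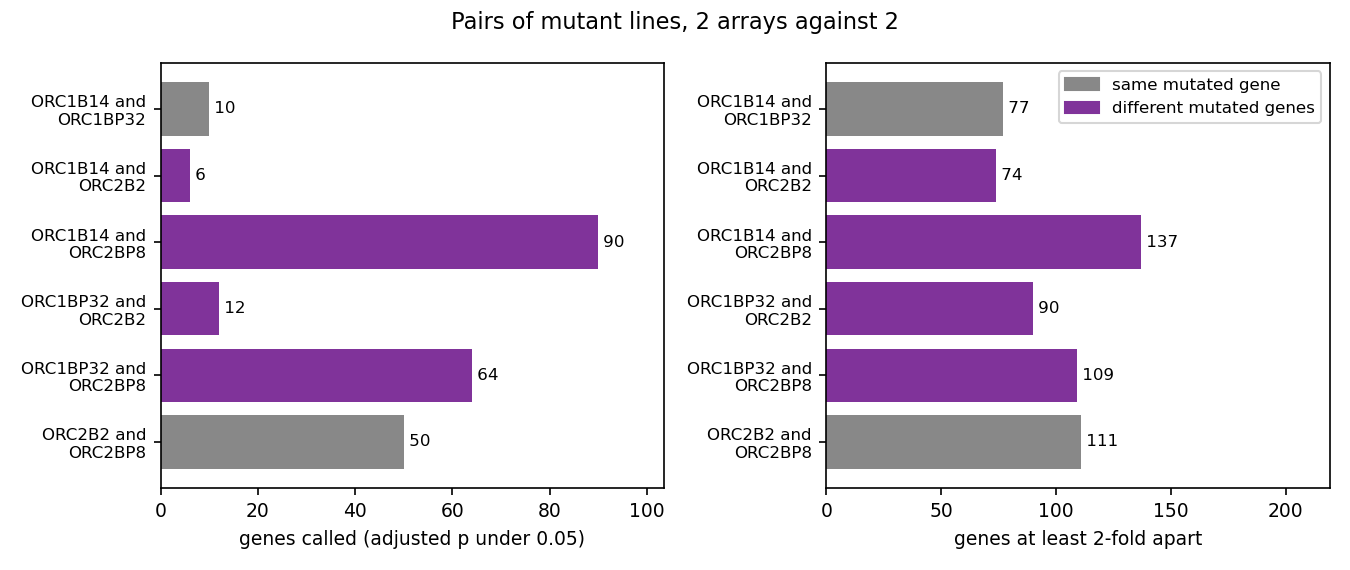
Number of genes called by limma at an adjusted p under 0.05 (left) and at least 2-fold apart (right) for each of the 6 pairs of mutant lines, 2 arrays against 2, with pairs of the same mutated gene in grey and pairs of different genes in purple. The grey bars, 10 and 50 calls, fall within the range of the purple bars, 6 to 90 calls.

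The replicate numbers agreed poorly across all genes. The difference between ORC1 and ORC2 lines in replicate 1 and that in replicate 2 had the same sign for 48.7% of genes, with a Pearson correlation across genes, which are not independent replicates, of 0.068. In limma the test of whether the difference between ORC1 and ORC2 lines changed with the replicate number called 0 genes. It had 1075 at an unadjusted p under 0.05 and a smallest adjusted p of 0.256. Correlations between arrays were 0.979 to 0.983 within a line, 0.975 to 0.989 between lines of one mutated gene and 0.975 to 0.989 between lines of different genes. Every pair within a line joins replicate 1 to replicate 2, while the pairs between lines include arrays of one replicate number, so these ranges do not show whether arrays of a line are more alike.

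**Figure D3:**
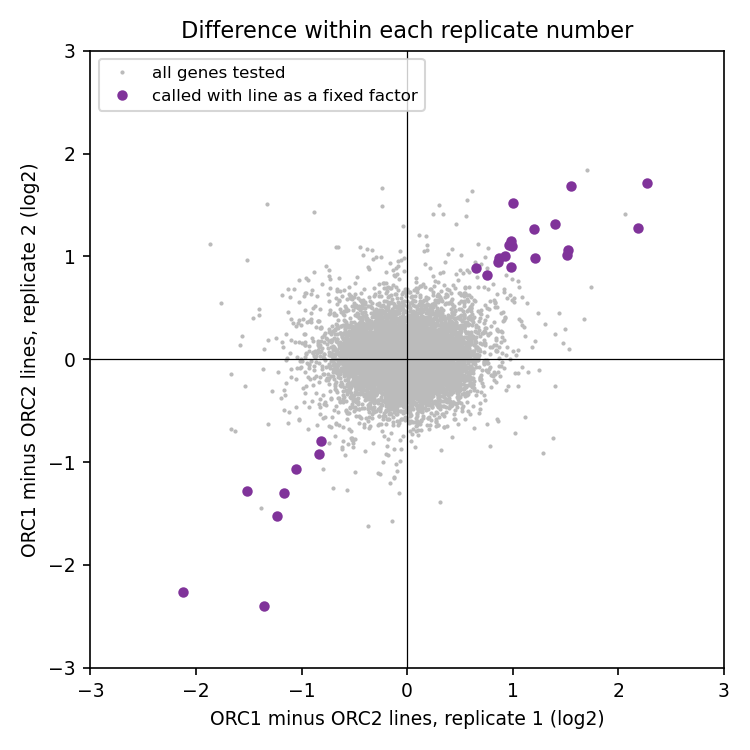
Difference between ORC1 and ORC2 lines in replicate 1 (horizontal axis, log2) and in replicate 2 (vertical axis, log2), with 1 grey point for each of 10320 genes and purple points for the 26 genes called with line as a fixed factor. The grey cloud has no slope (correlation 0.068), while the purple points, which were chosen on both replicates, lie in the 2 quadrants of equal sign.

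Gene lists were described by counts and medians with no test of their own, and 0 of their members were called with line as a random block. In lists of the machinery that ORC serves, 3 of 14 licensing genes, 4 of 15 fork genes, 6 of 24 genes of mitosis and 2 of 15 centrosome genes were above 0. Over all genes the median difference was 0.00031. Of these lists, only licensing and fork kept the sign of their median in both replicate numbers. The counts are not read as a result for the lists. In the list named for the origin recognition complex, LRWD1, which binds ORC on chromatin, differed by 0.10 (SE 0.15). The heterochromatin protein BAHD1, placed in the same list, differed by 0.09 (SE 0.17). Of 14 tested genes of origin licensing and the MCM helicase, 2 were higher in ORC1 lines and 2 lower at an unadjusted p under 0.05 (4.36% and 3.36% over all genes), with a median of -0.09. CDT1, the licensing factor that brings MCM to ORC, was higher (0.38, SE 0.16), as was the helicase subunit MCM3 (0.37, SE 0.15). CDC7, the kinase that fires loaded helicases, and MCM8 were lower (-0.65, SE 0.19, and -0.63, SE 0.25), and limma adjusted p was 0.534 to 0.631 for these 4 genes. CDC7 read 7.13 on ORC1B14 replicate 1 and 8.27 on replicate 2, against 7.82 and 8.53 in ORC1BP32, 8.62 and 8.82 in ORC2B2 and 8.26 and 8.64 in ORC2BP8. Its groups overlapped, and the lowest value came from a single array.

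Downstream of licensing, 0 of 15 replication fork genes, 0 of 24 genes of mitosis and the kinetochore, and 0 of 15 centrosome genes reached an unadjusted p under 0.05 in either direction, with medians of -0.07, -0.07 and -0.14. The centrosome median was -0.36 in replicate 1 and 0.11 in replicate 2, so it changed sign between replicate numbers. So did the medians of mitosis (-0.16 and 0.0061) and of the 19 checkpoint and recombination genes (-0.25 and 0.011). The centrosome median was -0.29 to 0.030 in the 4 pairs of an ORC1 and an ORC2 line, and -0.22 for ORC1B14 minus ORC1BP32. Of 21 genes of the G1/S transition 1 was lower, the cyclin-dependent kinase gene CDK6 (-0.68, SE 0.21), and of 19 checkpoint and recombination genes 2 were lower, HUS1 of the checkpoint clamp (-0.32, SE 0.13) and XRCC2 of homologous recombination (-0.47, SE 0.20). Of 22 genes of heterochromatin and DNA methylation, CBX2 of Polycomb and CBX1, which encodes HP1 beta, were lower (-0.37, SE 0.14, and -0.37, SE 0.15), and 0 were higher.

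The list with the largest median was that of interferon-stimulated genes. All 19 tested were above 0 (median 0.36, against 0.00031 over all genes), and 8 were higher and 0 lower at an unadjusted p under 0.05: HERC5, SAMD9, OASL, IFIT2, RIGI, IFIH1, ISG15 and SLFN5. Over all genes 4.36% were higher and 3.36% lower at that threshold. HERC5, the ligase that attaches ISG15 to proteins, read 6.59 and 6.28 in ORC1B14, 6.72 and 6.35 in ORC1BP32, 5.93 and 5.61 in ORC2B2, and 6.27 and 5.64 in ORC2BP8. It was the 1 gene of the 19 whose groups did not overlap (0.62, SE 0.13, limma adjusted p 0.258). Over all genes 2.09% had ORC1 arrays above ORC2 arrays and 1.28% below. The lowest ORC1 and highest ORC2 arrays of HERC5 were almost level. OASL, related to the oligoadenylate synthetases, read 7.62 and 6.01 in ORC1B14, 7.60 and 6.48 in ORC1BP32, 6.16 and 5.59 in ORC2B2, and 5.70 and 6.11 in ORC2BP8. Here the ORC1 lines were clear of the ORC2 lines in replicate 1 and overlapped them in replicate 2 (1.04, SE 0.27, limma adjusted p 0.442). IFIH1, a sensor of double-stranded RNA, read 6.26 and 5.78 in ORC1B14, 7.78 and 6.42 in ORC1BP32, 6.17 and 5.68 in ORC2B2, and 6.04 and 5.14 in ORC2BP8.

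As for IFIH1, most of the interferon difference lay in ORC1BP32. ORC1B14 was below ORC1BP32 by a median of 0.50 over the 19 genes (ORC1B14 minus ORC1BP32, -0.50, 2 of 19 above 0), which is larger than the difference between the mutated genes. ORC1B14 exceeded ORC2B2 by 0.035 (10 of 19 above 0) and ORC2BP8 by 0.29 (13 of 19), while ORC1BP32 exceeded them by 0.47 and 0.68 (18 of 19 each). The list median was 0.42 in replicate 1 and 0.30 in replicate 2. Relative to WT the median was 0.28 for ORC1 lines and -0.11 for ORC2 lines.

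Another list with most members on one side held feedback genes and growth factor receptors of the MAPK pathway, where active ERK induces phosphatases and transcription factors that report its own activity. Of 21 tested, 18 were above 0 (median 0.30), with 7 higher and 2 lower at an unadjusted p under 0.05, against 4.36% and 3.36% of all genes. The ERK phosphatase gene DUSP4 read 8.36 and 8.49 in ORC1B14, 8.38 and 8.01 in ORC1BP32, 7.24 and 7.39 in ORC2B2, 7.33 and 7.91 in ORC2BP8, and 8.37 and 8.45 in WT. Both ORC1 lines were at the WT level and both ORC2 lines below it (0.85, SE 0.17, limma adjusted p 0.258). FOSL1, a subunit of AP-1, read 10.77 and 10.07 in ORC1B14, 10.54 and 10.37 in ORC1BP32, 9.87 and 9.87 in ORC2B2, and 9.32 and 9.78 in ORC2BP8 (0.73, SE 0.17, limma adjusted p 0.396). The ETS factor gene ETV5 and the early response gene IER3 were also apart between groups, by 0.53 (SE 0.14) and 0.44 (SE 0.14). In all, 4 of 21 genes had ORC1 arrays above ORC2 arrays and 0 below, against 2.09% and 1.28% of all genes. The other higher members were DUSP5 (0.82, SE 0.31), DUSP6 (0.50, SE 0.21) and the EGF-family ligand HBEGF (0.37, SE 0.16), and the lower ones were the receptor gene IGF1R (-0.40, SE 0.16) and ETV4 (-0.32, SE 0.14).

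For the MAPK list the median of ORC1B14 minus ORC1BP32 was 0.011. The median was 0.12 to 0.38 in the 4 pairs of an ORC1 and an ORC2 line, 0.38 in replicate 1 and 0.25 in replicate 2. WT was above the ORC2 mean in 18 of 21 genes and above the ORC1 mean in 15, with medians of -0.54 for ORC2 lines and -0.20 for ORC1 lines relative to WT.

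**Figure D4:**
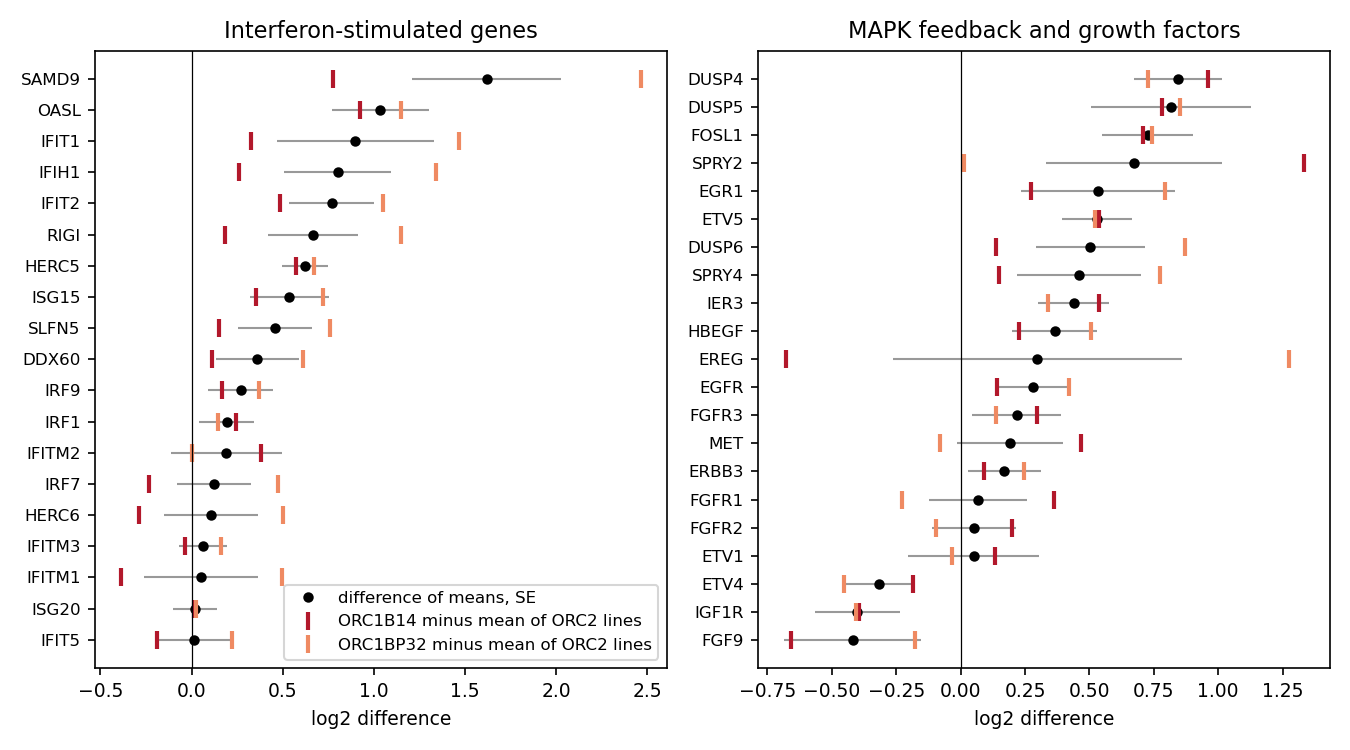
Log2 difference between ORC1 and ORC2 lines (horizontal axis, black points with SE, n = 4 arrays a group) for the 19 interferon-stimulated genes (left) and the 21 MAPK genes (right) tested, with coloured ticks for each ORC1 line minus the mean of the ORC2 lines. All 19 black points lie above 0 on the left, where ORC1BP32 is mostly above ORC1B14, and 18 of 21 do on the right.

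Smaller groups held a few genes past the unadjusted threshold, which 4.36% of all genes passed as higher and 3.36% as lower, and counts as small as those that follow are not read as a result for a group. Of 12 glycolysis and hypoxia genes 3 were higher and 0 lower at an unadjusted p under 0.05 (median 0.18): NDRG1, a hypoxia-induced gene (0.67, SE 0.16), and the mitophagy receptor genes BNIP3 and BNIP3L (0.50, SE 0.19, and 0.42, SE 0.15). Of 14 genes of the unfolded protein and ATF4 response 4 were higher and 0 lower (median 0.12). They were SESN2, which restrains mTORC1 (0.57, SE 0.16), the stress transcription factor gene ATF3 (0.58, SE 0.19), CTH of cysteine synthesis (0.32, SE 0.13) and DDIT4, another brake on mTORC1 (0.79, SE 0.30). DDIT4 was at 8.60 and 8.16 in ORC1B14 and from 6.43 to 7.41 on the other 6 mutant arrays, so 1 line carried it. Of 13 p53 targets 3 were higher and 1 lower (median 0.15). SESN2, the cytokine gene GDF15 (0.90, SE 0.29) and the kinase gene PLK3 (0.39, SE 0.14) were higher, and PLK2 was lower (-0.75, SE 0.31).

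Of 20 genes of cholesterol and fatty acid synthesis 3 were higher and 1 lower. The sterol pathway enzymes HMGCS1 and MVD were higher (0.53, SE 0.19, and 0.56, SE 0.19), and SQLE, which makes squalene epoxide, was lower (-0.65, SE 0.23). Of 29 epithelial junction and keratin genes 3 were higher and 4 lower at an unadjusted p under 0.05, with a median of 0.12. The higher ones were the splicing regulator gene ESRP1 (0.60, SE 0.15), KRT18 (0.58, SE 0.21) and the transcription factor gene GRHL1 (0.48, SE 0.18), and the lower ones were KRTAP2-3, KRT23, KRTAP3-1 (-0.80, SE 0.23) and KRT20 (-0.98, SE 0.35). The list thus held no single direction, and the 4 lower genes are all on chromosome 17.

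Among signalling lists, the WNT antagonist gene NOTUM was the 1 gene of 13 WNT targets past an unadjusted p of 0.05 (-0.62, SE 0.16), and its 4 ORC1 arrays (5.57 to 5.99) lay below its 4 ORC2 arrays (6.16 to 6.77). Of 11 TGF-beta and BMP targets 2 were lower and 0 higher, the feedback inhibitor genes SMAD7 (-0.92, SE 0.41) and SKIL (-0.43, SE 0.17). SMAD7 stood at 6.93 and 6.87 in ORC2BP8 and from 4.82 to 5.65 on the other mutant arrays. LIF, a cytokine of the IL6 family and 1 of 7 inflammatory genes tested, was the only one past that threshold. It read 6.43 and 5.32 in ORC2BP8 and from 7.58 to 8.54 on the others (1.24, SE 0.44, limma adjusted p 0.594, fixed lines 0.017). SMAD7 and LIF both rested on ORC2BP8.

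In the gene order of the RefSeq table, neighbouring genes shared the sign of the difference over a few stretches of chromosome. On chromosome 16, 23 genes had ORC1 arrays above ORC2 arrays and 0 had them below, against 2.09% and 1.28% of all genes, and the median difference of its 515 tested genes was 0.11. From ITFG1 to DBNDD1, 219 neighbouring genes had a median of 0.28, with 197 above 0. This lay in ORC2BP8: ORC2B2 minus ORC2BP8 was 0.39 there, while ORC1B14 and ORC1BP32 exceeded ORC2B2 by 0.067 and 0.027. FA2H, MON1B and MLKL are in this stretch. Without ORC2B2, the limma fit with line as a random block called 62 genes, 24 of them in this stretch. ORC2BP8 was the only ORC2 line in that fit, and the stretch holds 219 of the 10320 genes tested.

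On chromosome 5, 44 neighbouring genes from MOCS2 to FCHO2 had a median of -0.46, with 41 below 0. Here ORC1B14 was below each of the other lines by a median of -0.84 to -0.76, and ORC1BP32 differed from the ORC2 lines by -0.042 and -0.058. On chromosome 20, 12 of 302 tested genes had ORC1 arrays above ORC2 arrays and 0 below, against the same 2.09% and 1.28% of all genes. Its 175 genes from SUN5 to OPRL1 had a median of 0.094, with 142 above 0. Both ORC2 lines were below both ORC1 lines there, by 0.064 to 0.18. Between lines of one mutated gene, ORC1B14 minus ORC1BP32 was -0.080 and ORC2B2 minus ORC2BP8 was -0.039. The former was larger in size than the 0.064 between ORC1B14 and ORC2BP8. The bounds of the 3 stretches were chosen with values of these data known. The cause of these stretches was not tested.

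**Figure D5:**
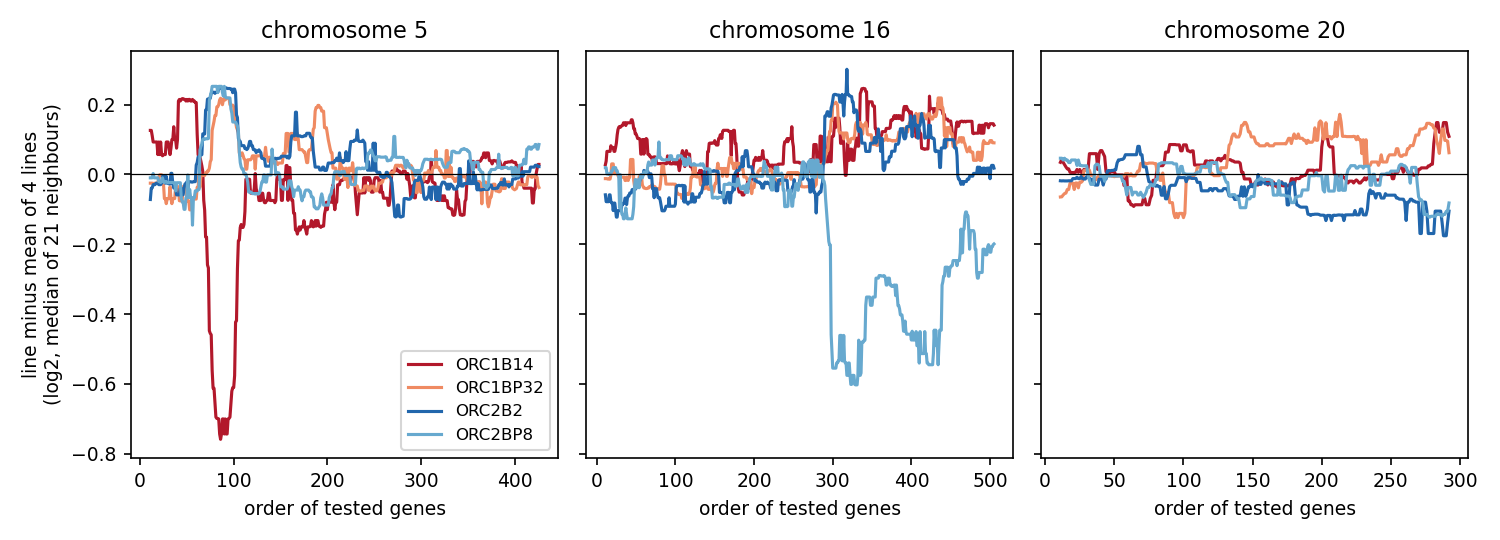
Each mutant line's log2 level minus the mean of the 4 lines (vertical axis, running median of 21 neighbouring tested genes, mean of 2 arrays) in gene order along chromosomes 5, 16 and 20 (horizontal axis). ORC1B14 dips alone on chromosome 5 and ORC2BP8 alone on chromosome 16, while on chromosome 20 the lines stay close together.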

How the data were processed

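RNA of 5 HCT116 lines was hybridised to Affymetrix arrays. The authors deposited log2 expression values of 53617 probe sets on 10 arrays, with Affymetrix Expression Console listed as the tool, per the submitters' processing notes. Neither the normalization nor a genome build is given in the sources used, and the log base was read from the range of the values. A platform table gave 1 gene symbol for 16098 probe sets and none for 37519, which left 14884 genes. Probe sets at or above the array median on at least 4 of the 8 mutant arrays were kept. The probe set with the highest mean stood for each of 371 genes with several, and 10320 genes were tested.

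Differences were fitted in R 4.3.3 with limma 3.58.1 (lmFit, eBayes with intensity trend), ORC1 minus ORC2 lines, blocking on the replicate number and taking the line as a random block (duplicateCorrelation, consensus correlation 0.029). In the second fit the line was a fixed factor. Adjusted p is Benjamini-Hochberg over 10320 genes, two-sided, threshold 0.05. The script was tested on simulated data. Arrays give no read depth, and their number limits the precision.

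Named genes were the 12 highest and 12 lowest called genes. With none called, these were the genes of largest difference among those at an unadjusted p under 0.05 with non-overlapping arrays. To these were added up to 3 genes of each of 32 lists by smallest p, DHRS3, CNTN1, STK39 and PEG10. The lists held 699 symbols, a few of them older symbols of a gene also listed, and 442 genes were named. The remaining genes called with fixed lines were named after their values were seen. The members and lists were chosen with earlier results of these data known. Arrays of one replicate number deviated together from their line means, with correlations of 0.080 to 0.582 over 10 pairs of lines and 9 of 10 above 0.1. The correlation was 0.582 for ORC1B14 with ORC1BP32 and 0.386 for ORC2B2 with ORC2BP8. Between an ORC1 and an ORC2 line it was 0.080 to 0.278. The block does not remove a deviation shared only by lines of one mutated gene. Such sharing bears on the comparison of ORC1 with ORC2 lines, and neither fit allowed for it. The block was kept because the comparison is defined with it. Settings tried were other normalizations, filters and probe set rules, each array or line left out, and no block.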

Additional observations from a re-analysis of the deposited data

How the results depend on the processing

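With 8 arrays of 4 lines, limma called 0 genes between ORC1 and ORC2 lines under all alternatives but these. The other model, with line as a fixed factor, called 26, and 43 when the WT arrays joined it. The fit with line as a random block called 2 without line ORC1B14 (KRTAP2-3 and SAMD9) and 7 without ORC1BP32. It called 62 without ORC2B2 and 4 without ORC2BP8 (KRT23, SYTL2, UCA1 and YBX1). Over all 27071 probe sets, named or not, a setting added after seeing the data, 1 unnamed probe set was called. Leaving out single arrays gave 0 to 1 calls, the 1 being KRTAP2-3 without ORC1B14 replicate 1. Without the replicate block, 0 genes were called by the random-line fit (841 at an unadjusted p under 0.05), 5 with fixed lines (CNTN1, DHRS3, DNER, GLIS3-AS1 and PEG10), 2 between ORC1B14 and ORC1BP32 and 21 between ORC2B2 and ORC2BP8. Deviations of arrays with one replicate number correlated above 0.1 in 9 of 10 pairs of lines, and at 0.080 in the lowest pair. Pairing is thus not shown for every line. A call gained or lost with the block says nothing of the size of a difference. In settings added after seeing the data, the fixed-line count was 43 with WT arrays and 7 to 31 with single arrays left out: 7 without ORC1B14 replicate 1, 8 without ORC1BP32 replicate 2, and 16 without ORC1BP32 replicate 1 or ORC2BP8 replicate 1. With single arrays left out, 7 to 18 of the 26 genes remained called. Between ORC2B2 and ORC2BP8 the count was 89 with WT arrays, 77 after quantile normalization and 77 with arrays centred, and between ORC1B14 and ORC1BP32 it was 22 after quantile normalization, 19 with arrays centred and 6 with a stricter filter. GLIS3-AS1 went to -0.035 without ORC1B14 and MLKL to -0.085 without ORC2BP8, with the sign turned.

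List medians that moved by more than their spread were these. With no filter they were -0.056 (WNT targets), 0.012 (neuronal adhesion) and -0.044 (imprinted genes), with a stricter filter -0.11 (neuronal adhesion) and -0.26 (imprinted), and with the mean of probe sets 0.12 (mesenchymal transition). With single arrays left out they ran from 0.12 to 0.33 (NF-kB), -0.15 to 0.15 (mesenchymal), 0.020 to 0.34 (neuronal), -0.25 to -0.088 (imprinted) and 0.26 to 0.49 (MAPK). Without ORC1B14 they were 0.27 (p53 targets), -0.062 (ATF4 response), 0.25 (cholesterol synthesis), -0.47 (TGF-beta targets), -0.24 (mesenchymal) and 0.096 (neuronal). Without ORC1BP32 they were 0.29 (glycolysis and hypoxia), -0.043 (WNT) and 0.15 (mesenchymal). Without ORC2B2 they were 0.27 (p53), -0.25 (retinoic acid), -0.095 (epithelial and keratin), 0.18 (mesenchymal) and -0.075 (imprinted). Without ORC2BP8 they were -0.051 (WNT), 0.19 (retinoic acid), -0.22 (neuronal) and 0.43 (MAPK). Within replicate 1 they were 0.47 (NF-kB), -0.14 (neuronal), -0.11 (imprinted), 0.078 (enterocyte) and 0.24 (colonic markers), and within replicate 2 0.11 (centrosome), 0.011 (NF-kB), 0.028 (neuronal), -0.13 (enterocyte), -0.034 (colonic markers) and -0.21 (other epithelial markers). The causes were not tested, beyond the fewer arrays of the reduced fits. The remaining 609 of 650 list medians compared stayed within the spread.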

Other observations

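Lists not described above held few genes past an unadjusted p of 0.05 in the limma fit with line as a random block, which 4.36% of all genes passed as higher and 3.36% as lower. The mesenchymal transition list had 2 higher and 1 lower of 9 tested (median -0.044): the matrix metalloprotease gene MMP14 (0.37, SE 0.16) and the transcription factor gene SNAI1 (0.40, SE 0.17) were higher, and fibronectin, FN1, was lower (-0.70, SE 0.32). FN1 read 8.27 and 8.12 in ORC2BP8 and from 6.33 to 7.42 on the other mutant arrays, so ORC2BP8 stood apart. Of 7 tested genes of neuronal adhesion and the synapse, CNTN1 and the guidance cue gene SLIT2 (0.76, SE 0.27) were higher and the ephrin receptor gene EPHA4 (-0.53, SE 0.19) lower (median 0.30). That median was -0.14 in replicate 1, 0.028 in replicate 2, -0.22 without ORC2BP8 and -0.11 with a stricter filter, so its direction turned, and SLIT2 had ORC2BP8 apart at a line mean of 3.84 against 4.84 to 5.18 in the others. Of 12 aminoacyl-tRNA synthetases 0 were higher and EPRS1 was lower (-0.28, SE 0.13). No gene passed in either direction among 13 of ribosome biogenesis (median -0.10), 3 of MHC class I (median 0.23) and 2 cancer-testis antigens (median -0.055), and KRT20 was the 1 of 8 enterocyte and secretory genes that did. Of the replication-dependent histones 0 of 9 were named, and they are not analysed here.

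The mean level over the marker list of colonic epithelium was 6.11 to 6.43 on ORC1 arrays and 6.14 to 6.37 on ORC2 arrays. It was 3.09 to 3.20 and 3.05 to 3.22 for the 3 fibroblast markers, 4.76 to 5.24 and 4.54 to 4.97 for the 3 blood markers, and 4.31 to 4.43 and 4.22 to 4.42 for 10 markers of other epithelia, so the groups overlapped for each list.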
